A study of Homo sapiens with 2 samples.

Results

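The prolactin axis was followed through 7 genes chosen by name from the 46732 genes of the annotated gene table: the receptor gene PRLR, the kinase gene JAK2, the transcription factor genes STAT5A, STAT5B and ELF5, and the feedback inhibitor genes SOCS2 and CISH. All 7 had counts in both libraries and at least 100 counts in at least 1 of them. RNA came from secondary mammospheres of T47D, an established breast cancer line of luminal type that carries the estrogen receptor. One library was made from control cells and one from CIC knockdown cells, both grown in suspension for 7 days, passaged, and grown for 7 days again. CIC (capicua) is a DNA-binding repressor of genes downstream of receptor tyrosine kinases. The design text mentions duplicates, but the tables hold 1 column per group, and the sources used here do not give the method of knockdown or whether the cells were 1 clone.

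Prolactin binds its receptor at the cell surface and brings the bound kinase JAK2 into its active state. JAK2 phosphorylates STAT5A and STAT5B, which move to the nucleus and bind short palindromic DNA sites. In the mammary gland this pathway drives the milk-secreting alveolar cells, where the ETS factor ELF5 acts in the same programme. CISH and SOCS2 are switched on by STAT5 and limit further signalling from the receptor. T47D cells are widely used to study the prolactin receptor.

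Depth was 47099221 estimated counts in control and 68420805 in the library labelled CIC knockdown, a factor of 1.45. CIC itself held 607 and 872 counts (ratio 0.98, 95% counting interval 0.882 to 1.09), so a lower CIC mRNA was not seen where the label names a knockdown, and each library is called here by its label. ETV5 and ETV4, genes that CIC is known to repress, had ratios of 4.93 (4.24 to 5.86) and 4.62 (3.71 to 6.0). All 9 luminal epithelial markers had at least 1141 counts in each library, with summed levels of 8021 and 8115 TPM (a level per transcript length, scaled to library size). The basal keratin genes KRT5 and KRT14, the leukocyte gene PTPRC and the fibroblast gene COL1A2 had 0 counts in both. Other markers of these sets were not absent. The basal marker TP63 had 38 and 8 counts (ratio 0.179, 0.0579 to 0.312), and the myoepithelial marker ACTA2 had 65 and 84. The leukocyte marker LYZ had 2 and 14 counts and the endothelial marker PECAM1 2 and 16. TP63, LYZ and PECAM1 were named after their values were seen. Summed levels of the other marker sets were 0.950 and 0.764 TPM for basal or myoepithelial cells, 0.0281 and 0.207 for leukocytes, 0.0740 and 0.155 for endothelium, 4.71 and 2.91 for fibroblasts and 0.935 and 0.633 for erythroid cells. The fibroblast sum was mostly LUM, with 550 and 432 counts, while the fibroblast marker COL1A1 stood on the higher side with 58 and 168 counts (ratio 1.95, 1.46 to 2.71). Whether these traces bear on any value below was not tested.

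Ratios here compare normalised counts, the library labelled CIC knockdown over control, and the intervals cover counting error only. Each group is 1 library, so the differences describe these 2 libraries, without replicates and without a test. In bulk RNA, fewer cells of a type and less RNA per cell cannot be told apart. By their counting intervals, SOCS2, STAT5A and STAT5B (3 members) stood higher under the knockdown label, 3 were lower (ELF5, PRLR and CISH), and JAK2 was not separated from an equal level. Such an interval is a low bar at this depth: among all 13722 genes with at least 100 counts, 61.1% had an interval that left out a ratio of 1, 33.8% on the higher and 27.3% on the lower side. By the rule of size, which asks for at least 2-fold, at least 100 counts and an interval on the same side, 0 of the 7 members were called. The background of that rule was 2.14% of genes, 1.17% higher and 0.962% lower. The median log2 ratio of the members was -0.08, against 0.02 for all 19849 genes with at least 10 counts.

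The receptor and its kinase had the most counts among the members in both libraries. PRLR (gene 5618, GRCh38 chromosome 5, 35048756 to 35230724) had 3071 and 3508 counts, or 65.5 and 51.0 CPM (counts scaled to library size). Its level was thus lower in the library labelled CIC knockdown, with a ratio of 0.779 (0.742 to 0.818) and a log2 ratio of -0.36. Of the genes with at least 100 counts, 8.15% had a lower log2 ratio than PRLR. JAK2 (gene 3717, chromosome 9, 4985086 to 5128183) had 1972 and 2728 counts, or 42.1 and 39.7 CPM. The JAK2 ratio of 0.944 had an interval of 0.890 to 1.00 that just took in an equal level. Scaling on protein-coding genes alone moved the JAK2 interval to 0.876 to 0.984, on the lower side. The number of PRLR counts per JAK2 count, which no library scaling can alter, was 1.56 in control and 1.29 in the other library. That quotient was 0.826 (0.765 to 0.891) times the control value.

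Both STAT5 genes stood slightly higher under the knockdown label, and STAT5B held most of the STAT5 RNA in each library. STAT5B (gene 6777, chromosome 17, 42199177 to 42288437) had 950 and 1533 counts, or 20.3 and 22.3 CPM, a ratio of 1.10 (1.01 to 1.19). STAT5A (gene 6776, chromosome 17, 42287547 to 42311943) had 97 and 187 counts, or 2.07 and 2.72 CPM, a ratio of 1.31 (1.02 to 1.70). Whether reads or read pairs were counted is not known. From halved counts, the intervals took in an equal level for both genes (0.980 to 1.24 for STAT5B and 0.920 to 1.90 for STAT5A), and scaling on protein-coding genes did the same for STAT5B (0.998 to 1.18). STAT5A made up 9.26% (7.58% to 11.2%) of the STAT5 counts in control and 10.9% (9.44% to 12.4%) in the other library, so a different balance of the pair was not detectable at this depth. The exact Clopper-Pearson method gave these intervals and those of each gene's ratio. The 2 genes lie beside each other, and their annotated spans overlap by 891 bases. They are close copies: 8.61% of the 50-base stretches of annotated STAT5A transcripts also occur in STAT5B, so some reads could be assigned to either. The summed STAT5 counts avoid that division. They were 1047 and 1720, a ratio of 1.12 (1.04 to 1.21).

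ELF5, the ETS factor of alveolar and luminal progenitor cells, had the lowest ratio among the members. ELF5 (gene 2001, chromosome 11, 34478791 to 34513794) had 885 and 953 counts, or 18.9 and 13.9 CPM. The deeper library thus held a smaller share of ELF5, with a ratio of 0.735 (0.670 to 0.806) and a log2 ratio of -0.44. Of the genes with at least 100 counts, 5.63% had a lower log2 ratio. The count of ELF5 per PRLR count was 0.288 in control and 0.272 in the other library. Those 2 genes were thus lower by a similar factor, and the quotient between the libraries was 0.943 (0.849 to 1.05).

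The feedback inhibitor genes SOCS2 and CISH stood on opposite sides. Both encode proteins with an SH2 domain, which binds phosphorylated tyrosines, and a SOCS box, which recruits a ubiquitin ligase. SOCS2 (gene 8835, chromosome 12, 93569849 to 93626236) had 219 and 538 counts, or 4.67 and 7.83 CPM. Its ratio of 1.67 (1.43 to 1.97), a log2 ratio of 0.74, was the highest of the 7, and 2.36% of genes with at least 100 counts had a higher log2 ratio. CISH (gene 1154, chromosome 3, 50606454 to 50611774) had 304 and 362 counts, or 6.48 and 5.27 CPM. The CISH ratio was 0.813 (0.695 to 0.949), a log2 ratio of -0.30. From halved counts the interval of CISH took in an equal level (0.651 to 1.01), whereas that of SOCS2 did not (1.34 to 2.11). In control there were 0.720 SOCS2 counts for each CISH count, and in the other library 1.49. The quotient between the libraries was 2.06 (1.65 to 2.58), which does not depend on how the libraries were scaled.

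**Figure D1:**
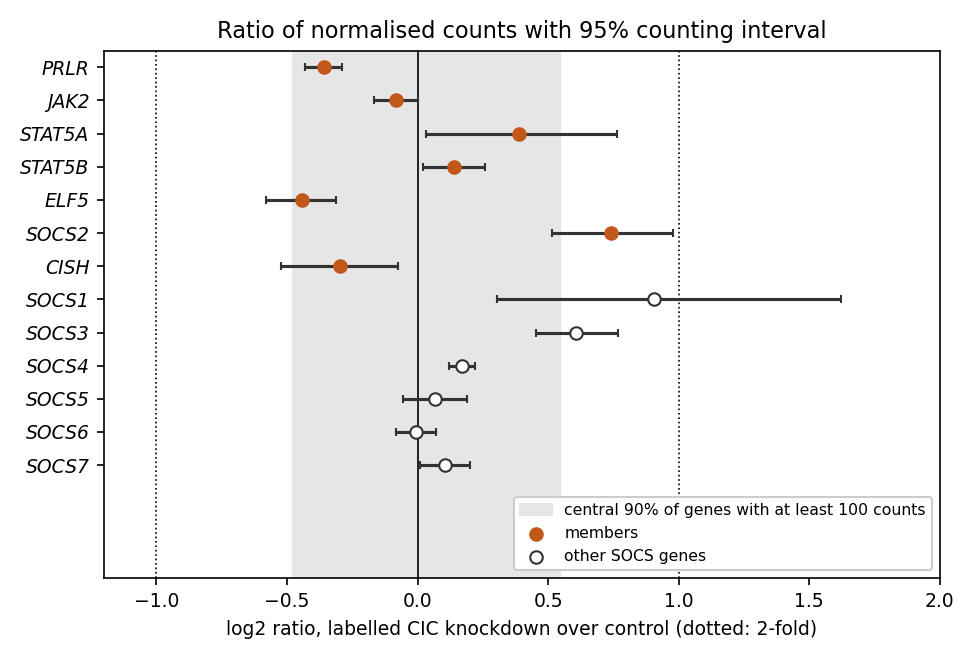
Log2 ratio of the library labelled CIC knockdown over control (x axis) for the 7 members (filled points) and the other SOCS genes (open points), with bars for the 95% counting interval. The grey band holds the central 90% of genes with at least 100 counts, and the dotted lines mark 2-fold. SOCS2 at 0.74 lies right of the band, as do SOCS1 at 0.91 and SOCS3 at 0.61. ELF5, PRLR and CISH lie in the left part of the band.

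CISH and SOCS2 belong to a family of 8 genes, CISH and SOCS1 to SOCS7. With SOCS2 among them, 5 were higher by interval, CISH (1 gene) was lower, 2 were not separated from an equal level, and 0 passed the rule of size. Among all genes with at least 10 counts, 28.4% were higher by interval and 24.2% lower. Among those with at least 100 counts, a level that all of the family but SOCS1 reached, 33.8% were higher and 27.3% lower. SOCS1, an inhibitor that binds Janus kinases directly, had 28 and 79 counts and a log2 ratio of 0.91, with a wide interval of 1.24 to 3.08 for the ratio. SOCS3, which limits signalling by receptors that use gp130, had 488 and 1092 counts and a log2 ratio of 0.61 (ratio 1.52, 1.37 to 1.70). The other 4 family genes, whose values were seen before they were chosen for naming, lay closer to an equal level. SOCS4 stood at 0.17, SOCS7 at 0.10, SOCS5 at 0.07 and SOCS6 at -0.01. The SOCS7 interval began at 1.01, and from halved counts it took in an equal level (0.978 to 1.18).

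The sequence before the CISH start is shown because it carries the DNA motif that STAT5 binds. RefSeq promoter windows on build GRCh38.p14 were found for 6 of the 7 members, with 12 windows in all, and the 250 bases before each start were searched on both strands for the STAT5 palindrome TTCNNNGAA. Capitals mark its 4 copies in CISH (chr3:50611775-50612024, minus strand).
CISH: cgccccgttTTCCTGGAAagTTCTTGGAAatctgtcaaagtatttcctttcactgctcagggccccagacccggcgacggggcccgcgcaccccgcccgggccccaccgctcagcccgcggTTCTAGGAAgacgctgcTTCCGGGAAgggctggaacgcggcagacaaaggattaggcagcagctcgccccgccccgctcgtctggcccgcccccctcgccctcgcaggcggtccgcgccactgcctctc
The copies begin 241, 230, 129 and 112 bases before the start and do not overlap. At least 1 copy was present in 6.57% of the 35116 RefSeq windows of this length, and at least 4 copies in 5 of them, or 0.0142%. None of the other 11 windows of the members held the palindrome in these bases, but they do not cover all starts in use. SOCS2 had no window and was not searched. The 1 ELF5 window lies at the downstream start, near which the deposited transcripts had 17 and 35 counts, and not at the upstream start that held most ELF5 counts. The deposited STAT5A transcripts within 100 bases of a searched STAT5A start had 0 counts in both libraries. The deposited CISH transcripts that begin at this start had 153 and 165 counts.

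The same windows were searched for the octamers that CIC binds, TGAATGAA, TGAATGGA, TCAATGAA and TCAATGGA, on both strands. They were present in 2 of the 12 windows of the members and in 3.18% of all RefSeq windows. The stretches of 30 bases around them are shown because CIC is known to bind these octamers, which are in capitals (PRLR at chr5:35230706-35230735, minus strand, and JAK2 at chr9:4984324-4984353, plus strand).
PRLR: ggtacagtcTCAATGAAagatatgtggccc
JAK2: gtaaatattTGAATGAATGAAtgaggccct
The PRLR octamer begins 239 bases before the start at 35230487, near which 3 of the deposited transcripts begin, with 2490 and 2748 counts. JAK2 holds 2 overlapping octamers, 57 and 53 bases before a start at 4984390 near which 0 deposited transcripts begin. A match describes letters only, not a bound site. The log2 ratios of these 2 members were -0.36 and -0.08.

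Levels of different genes can be compared in TPM, which is per transcript length. In control the order was ELF5 at 8.57, JAK2 at 8.11, PRLR at 6.22, STAT5B at 3.98, CISH at 2.27, SOCS2 at 1.87 and STAT5A at 0.473 TPM. In the library labelled CIC knockdown it was JAK2 at 7.80, ELF5 at 6.32, PRLR at 5.20, STAT5B at 4.68, SOCS2 at 3.13, CISH at 1.81 and STAT5A at 0.724 TPM. The pairs ELF5 with JAK2 and CISH with SOCS2 exchanged places. In control the counting intervals of both pairs overlapped (8.02 to 9.16 with 7.76 to 8.48 TPM, and 2.02 to 2.54 with 1.63 to 2.13 TPM), so their order there was not resolved. In the other library they did not overlap (5.93 to 6.74 with 7.51 to 8.10 TPM, and 1.63 to 2.01 with 2.87 to 3.40 TPM). All other neighbours in either order were apart by more than their intervals. The closest were PRLR and STAT5B in the library labelled CIC knockdown (5.03 to 5.37 with 4.44 to 4.92 TPM). Halved counts were not tried for these TPM intervals, which also leave out any error in the division of counts among transcripts. No member was abundant: ELF5 exceeded 72.5% of genes with a TPM above 0 in control, and STAT5A 35.2%.

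**Figure D2:**
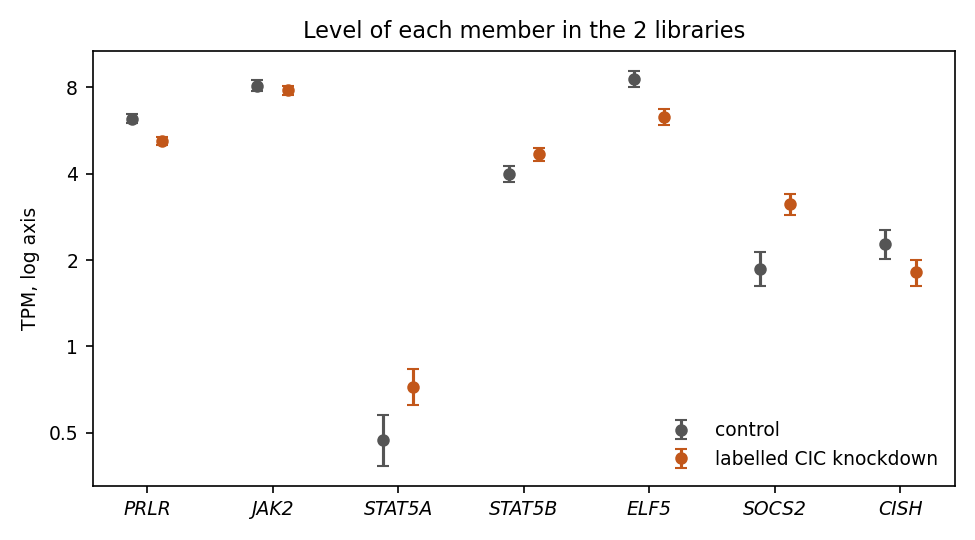
Deposited TPM (y axis, log scale) of each member in the control library (grey) and the library labelled CIC knockdown (orange), with bars for the 95% Poisson interval of the count. JAK2 is level at 8.11 and 7.80, SOCS2 stands higher in orange at 3.13 against 1.87, and ELF5 lower at 6.32 against 8.57.

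The authors divided each gene's counts among its annotated transcripts, and the division differed between genes in how far it could be followed. The PRLR gene has 13 transcripts, of which 10 had counts. The reference long form, variant 1, held 68.1% (66.4% to 69.7%) of PRLR counts in control and 63.9% (62.3% to 65.5%) in the other library. Together the 8 transcripts with the end of the long form held 98.4% and 97.7%. The 4 transcripts that end further downstream, as short receptor forms do, held 48 and 58 counts, a ratio of 0.830 (0.552 to 1.23). No difference was detectable at the short end. A share of counts understates a short transcript: these counts lay on variant 3, of 1767 bases, against 11581 for variant 1. Per length, variant 3 stood at 0.585 TPM in control and 0.493 TPM in the other library, where the whole gene had 6.22 and 5.20 TPM. Variant 2, which has an end of its own, had 0 and 22 counts. By start site, the 4 PRLR transcripts from the most upstream start held 2561 and 2801 counts (ratio 0.746, 0.707 to 0.787). The 9 from starts further downstream held 510 and 707 counts (ratio 0.946, 0.843 to 1.06). The upstream share was 83.4% (82.0% to 84.7%) in control and 79.8% (78.5% to 81.2%) in the other library.

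In JAK2 6.12% of counts changed transcript, against 4.95% in PRLR and 4.75% in CISH. Its reference transcript held 81.3% of counts in control and 85.0% in the library labelled CIC knockdown, with 1603 and 2319 counts. Among the minor transcripts of JAK2, variant 2 had 17 and 89 counts (ratio 3.35, 2.11 to 6.40) and variant 3 had 175 and 99 (ratio 0.391, 0.298 to 0.496). All JAK2 counts lay on the 6 transcripts that start at or near the most upstream site, and the 1 transcript with a start inside the gene had 0 counts in both.

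The ELF5 counts came almost wholly from the upstream start, with 98.1% in control and 96.3% in the other library. The ELF5 transcripts from that start together held 868 and 918 counts (ratio 0.722, 0.657 to 0.792). Within them the predicted variant X1 had 653 and 532 counts, variant 2 had 118 and 386, and variant 3 had 97 and 0. Between the libraries 28.9% of ELF5 counts changed transcript. Variants with the same start share most of their exons, and the counting intervals leave out any error of this division, so the gene total is the firmer value.

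The division also differed between the libraries for the other STAT5 and SOCS members. In STAT5A 100% of counts changed transcript: variant 1 held all 97 counts in control and 0 in the other library, where variant X1 held 118 and variant 3 held 69. In SOCS2 the share that changed was 50.8%, and in STAT5B 24.3%. SOCS2 variant 3 led in both libraries with 148 and 238 counts, a ratio of 1.10 (0.890 to 1.36). Most of the SOCS2 difference was assigned to other transcripts of the gene, above all variant 1 (0 and 141 counts) and variant 2 (0 and 70 counts), while variant 6 had 67 and 17 counts. The antisense gene SOCS2-AS1, whose span overlaps that of SOCS2, had 11 and 9 counts. CISH counts were split about evenly between variant 2 (153 and 165 counts) and the predicted variant X1 (151 and 197 counts). Their levels per length were not even: variant 2, of 2054 bases, had 1.61 and 1.21 TPM, and the longer X1 0.659 and 0.601 TPM. Variant X1 is 4933 bases long and covers 95.5% of its genomic span, so it is nearly unspliced. The spliced variant 2 alone had a ratio of 0.738 (0.587 to 0.923), and X1 a ratio of 0.891 (0.716 to 1.11).

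**Figure D3:**
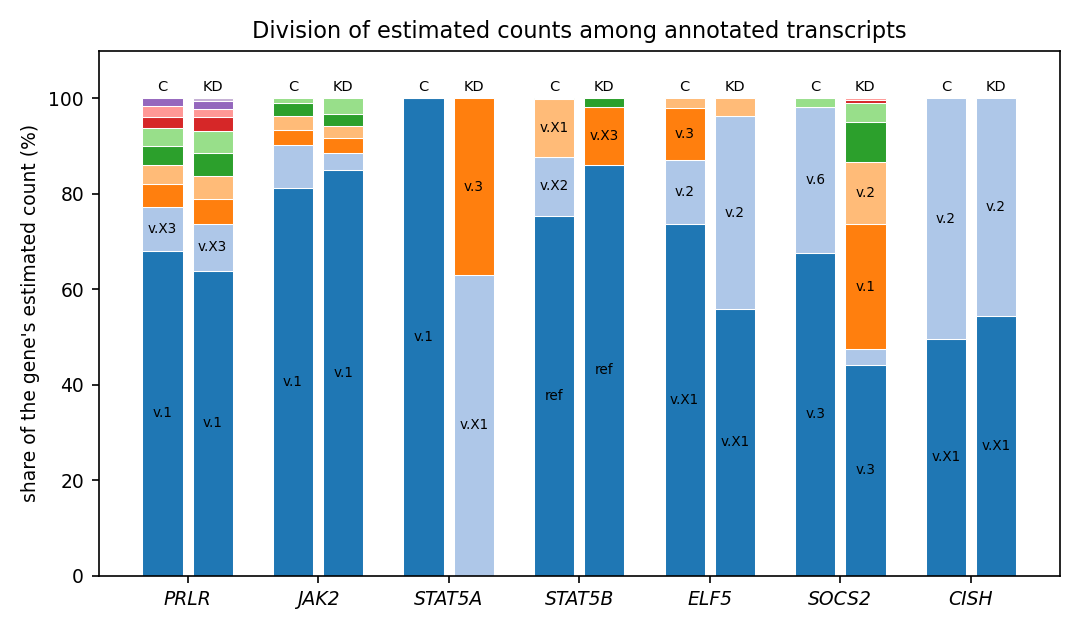
Share of each gene's estimated count (y axis, %) on each annotated transcript, as stacked bars for the control library (C) and the library labelled CIC knockdown (KD), with the variant named inside segments of at least 9%. JAK2 and PRLR keep 1 leading transcript at similar shares, while the STAT5A count sits on variant 1 in C and on variants X1 and 3 in KD.

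The other genes of the pathway were read from 6 lists with 104 genes in all. By interval, 52.6% of the genes with at least 10 counts were called, 28.4% higher and 24.2% lower. For genes with at least 100 counts, the shares were 61.1%, 33.8% and 27.3%. Of the lists' genes, 1 passed the rule of size, PGR. The background of that rule was 2.14% of all genes with at least 100 counts, 1.17% on the higher side. Of the genes for prolactin, growth hormones and placental lactogens, PRL, GH1, CSH1 and CSH2 had 0 counts in both libraries, which allows up to 0.0637 and 0.0438 CPM. GH2, named after its value was seen, had 5 counts in control and 0 in the other library. Of 26 cytokine receptors and ligands 16 were measured, with at least 10 counts, of which 7 were lower, 2 were higher and 7 were not separated. Their median log2 ratio was -0.05. IL4R, the interleukin 4 receptor, stood at -0.73 (1456 and 1288 counts), the interleukin 6 receptor IL6R at -0.61 (391 and 374 counts) and IL11RA at -0.52 (79 and 80 counts). The leptin receptor LEPR at -0.44 and the leukemia inhibitory factor receptor LIFR at -0.42 lay near PRLR. The 2 higher genes, named after their values were seen, were the gp130 gene IL6ST (ratio 1.11, 1.06 to 1.17) and IFNAR2 (1.24, 1.06 to 1.45). The growth hormone receptor GHR, the closest relative of PRLR and named after its value was seen, stood at a ratio of 0.955 (0.762 to 1.20) from 135 and 189 counts.

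Among 14 other Janus kinases, STATs and adaptors, 4 were higher, 4 lower and 6 not separated, with a median of -0.04. STAT3, which acts below gp130 receptors, stood at -0.29 (2963 and 3562 counts), STAT2 at -0.19 and the kinase JAK1 at -0.13. The kinase TYK2 stood at 0.17 and the adaptor SHC1 at 0.14. Of 21 inhibitors, 10 were higher, 4 lower and 7 not separated, with a median of 0.07. Beside SOCS1 and SOCS3, the ubiquitin ligase CBL stood at 0.57 (767 and 1668 counts), the SOCS box partner ELOC (elongin C) at 0.48 (1946 and 3969 counts) and the adaptor SH2B3, an inhibitor of JAK2, at 0.43 (114 and 226 counts).

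Genes known to respond to STAT5 or prolactin went both ways. Of 14 such genes 11 were measured, 4 higher, 2 lower and 5 not separated, and their median of 0.02 turned negative when libraries were scaled on protein-coding genes. For PIP, the prolactin-induced protein of apocrine secretions, 188 and 542 counts gave a ratio of 1.96 (1.66 to 2.33). PIM2, a survival kinase, stood at 0.49 (557 and 1151 counts) and the HLH factor ID1 at 0.31. BCL6, a repressor that STAT5 is known to keep low, stood at -0.56 (2748 and 2729 counts). TNFRSF11A, the RANK receptor, had 33 and 59 counts and was not separated from an equal level. Most milk genes were not detected: 8 of 14, among them the caseins CSN1S1, CSN2 and CSN3 and the lactalbumin gene LALBA, had 0 counts in both libraries. Of the 4 that were measured, the lipid droplet gene PLIN2 was higher at 0.22, the water channel AQP3 was lower at -0.33 (6878 and 8006 counts), and MFGE8 at -0.13 and FOLR1 at -0.02 were not separated.

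The last list joined epithelial ETS factors, the relatives of ELF5, with luminal and alveolar factors. Of its 15 genes 6 were higher, 8 lower and 1 not separated, and the median was -0.05. The progesterone receptor gene PGR, whose product acts with prolactin in alveolar growth, reached 2.07 times its control level (1.94 to 2.22), from 1141 and 3466 counts. ELF2 stood at -0.70 (2532 and 2282 counts), and the glucocorticoid receptor gene NR3C1, which cooperates with STAT5 at milk genes, at -0.45 (2181 and 2343 counts). The nuclear factor NFIA stood at 0.52 (89 and 188 counts). KIT, a receptor of luminal progenitors, had 29 and 64 counts and was not separated. EHF, an epithelial ETS factor related to ELF5, stood at -0.36 (484 and 551 counts). ELF4 at 0.37 and SPDEF at 0.16 were higher by interval, and ELF3 and ELF1, both at -0.10, were lower. All ETS factors of this list but ELF2 were named after their values were seen.

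**Figure D4:**
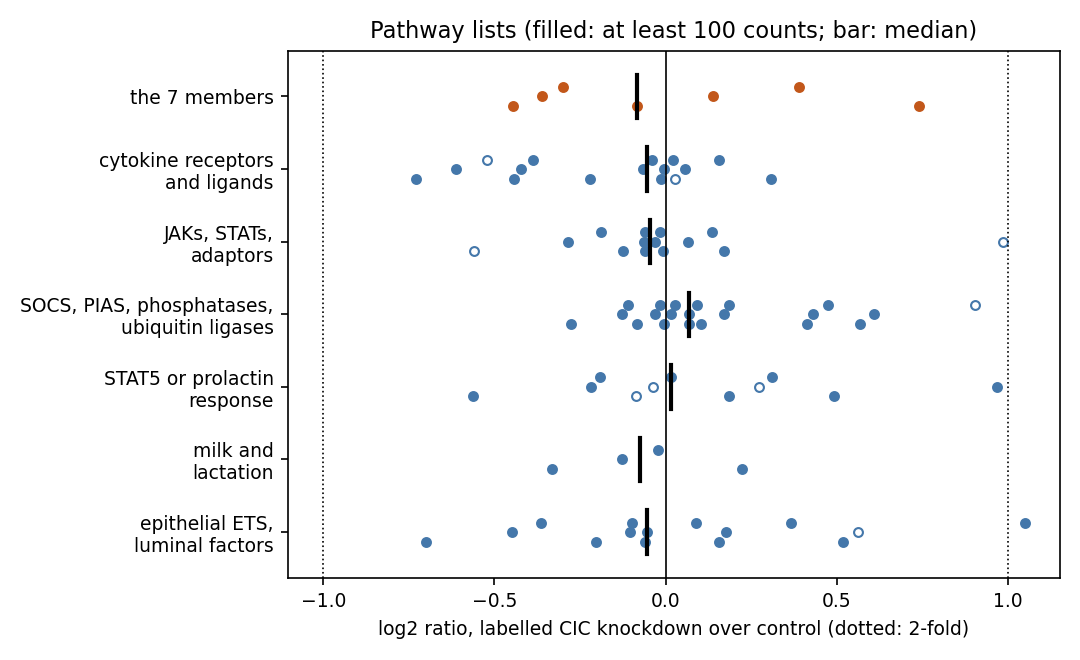
Log2 ratio of the library labelled CIC knockdown over control (x axis) for the members and for the measured genes of the 6 pathway lists (rows), with filled points for genes with at least 100 counts and a bar at each median. The medians lie between -0.08 and 0.07, and PGR in the last row lies beyond the dotted line of 2-fold at 1.05.

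**Figure D5:**
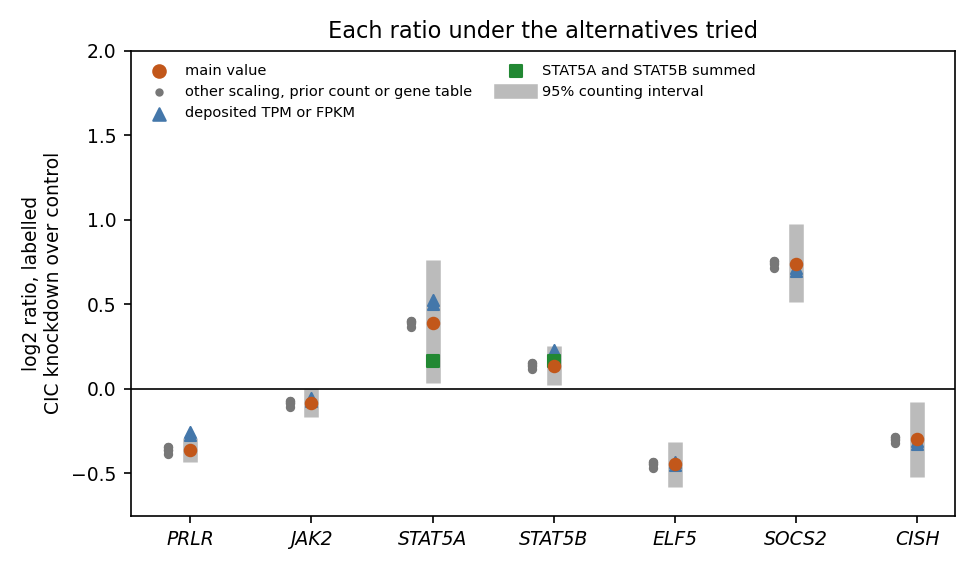
Log2 ratio (y axis) of each member as reported (orange), under other scalings, another prior count or the table with assembled transcripts (small grey points), in deposited TPM or FPKM (triangles) and, for the STAT5 genes, from summed counts (squares), with grey bars for the 95% counting interval. Each member keeps its sign, which a change of scaling could hardly alter. The PRLR triangles at -0.25 and -0.27 lie closer to 0 than the PRLR interval.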

How the data were processed

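Total RNA libraries were made with a strand-specific kit and sequenced on a NovaSeq instrument, per the labels' protocols. HISAT2, StringTie and Trimmomatic, without versions, and the build GRCh38 are listed in the submitters' processing notes. The authors deposited estimated counts, which were already whole numbers, with FPKM and TPM, which scale by length and library size, for each gene and transcript, per the file headers. Estimated counts follow from coverage divided among transcripts, so a gene's value can move with that division, and whether counting used strand is not stated. The column marked KD was taken as the CIC knockdown sample and that marked C as control, by title, and 0 columns were left unused.

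Library sizes were scaled by TMM factors (edgeR 4.0.16, R 4.3.3), 0.995 for control and 1.00 for CIC knockdown. Log2 ratios used edgeR's formula with a prior count of 2, and a ratio is 2 to that power. Ratio intervals are exact Clopper-Pearson intervals conditional on the summed count, and those of quotients between 2 genes are conditional intervals of an odds ratio. They cover counting error only, since each group has 1 library. PCR copies are not independent molecules, so even that error can be understated. The upper limit for a count of 0 was set at 3 counts. The members and lists were chosen with earlier results of these data known. Named genes were the members, CIC, ETV4 and ETV5, and in each list those past the rule of size and the 5 that differed most, up or down, given at least 50 counts in 1 library. Genes of a list with 0 counts in both libraries could also be named as such. Others are marked as named after their values were seen. Alternatives were DESeq2 1.42.0 size factors, total counts, TMM on protein-coding genes, a prior count of 0.5, TPM and FPKM with a pseudocount of 0.1, the table with assembled transcripts, other count minimums and halved counts.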

Additional observations from a re-analysis of the deposited data

How the results depend on the processing

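No paired analysis was possible because each group has 1 library, and for the same reason no replicate could be left out. The 7 members kept their sign under each alternative run, but several alternatives could hardly change a sign. Other scalings of the counts move all genes by nearly the same amount. With factors from protein-coding genes, the median log2 ratio of genes with at least 100 counts shifted by -0.023. Halving the counts leaves each ratio as it is, and the table with assembled transcripts held the same counts for the members. The log2 ratio of PRLR moved from -0.36 to -0.25 in TPM and -0.27 in FPKM. JAK2 moved to -0.11, with an interval below an equal level, and STAT5B to 0.12, with an interval that took in an equal level (0.998 to 1.18), when TMM factors came from protein-coding genes. Halved counts left the ratios of STAT5A (0.39), STAT5B (0.14) and CISH (-0.30) as they were but widened their intervals to take in an equal level. STAT5A ranged from 0.37, with factors from protein-coding genes, to 0.53 in TPM. The summed STAT5 counts, which are mostly STAT5B, gave 0.16 for the pair. ELF5 stayed between -0.47 and -0.43 and SOCS2 between 0.69 and 0.75. Genes past the rule of size, 161 higher and 132 lower, became 964 and 813 with a minimum of 10 counts and 1107 and 1181 with no minimum, and 219 and 225 in the table with assembled transcripts. The median of the list of STAT5 or prolactin response genes turned to -0.0071 with factors from protein-coding genes. It was 0.18 with a minimum of 1 count, a setting that brought in IGF1 (0 and 2 counts) and TNFSF11 (0 and 4 counts). The median of the inhibitor list moved from 0.07 to 0.19 in TPM and 0.17 in FPKM. The causes were not tested. Depth limits STAT5A most, with 97 control counts.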

Other observations

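Of the assembled splice variants the authors listed, 0 belonged to any of the 7 members, and 0 of the assembled transcripts lay inside a member's span. In the table with assembled transcripts the 7 members had the same counts as in the annotated table. The spans of 4 other genes overlap that of JAK2. Of these INSL6, PDSS1P1 and LOC107987044 had 0 counts in both libraries, and the pseudogene CSNK1G2P1 had 3 and 12 counts.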
